A study of Phalaenopsis aphrodite with 54 samples.

Results

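*PaAG-4* (contig PATC202120) is a MADS box gene of the moth orchid, placed by the study's class list in the STK group of its C/D genes, and is represented here by 1 of the 43662 contigs that have a probe on the array. It was taken by its contig identifier alone. A single probe, printed as 2 spots, stood for it on each of 54 arrays. Its level is described in 20 conditions hybridised after RNA amplification (41 arrays) and in 6 conditions hybridised without amplification (13 arrays), the latter sorted by genotype and tissue.

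All petals, lips, sepals, columns, pollinia and pedicels came from *Phalaenopsis* Sogo Yukidian ‘V3’ (V3), a tetraploid commercial hybrid, as did the small buds (under 1 cm), the large buds (over 1 cm), the amplified V3 flowers and whole flowers taken 1, 3, 8 and 15 days after pollination (DAP). The amplified leaf, root, stalk, inflorescence, young inflorescence, bud and flower samples came from diploid *Phalaenopsis aphrodite*. Leaf, root and flower of both genotypes were hybridised without amplification. The labels name no transgene, mutant or chemical treatment. Each condition had 2 arrays, except the *P. aphrodite* leaf with 3 in each set. The methods describe the floral organ arrays as repeats from separate collections, while the labels do not say whether the arrays of the other conditions came from separate plants, so p-values measure the spread between arrays, which may be technical. Probes were designed on *P. aphrodite* contigs, and how well the probe matches the V3 alleles was not tested. Floral organs (V3) and amplified vegetative tissues (*P. aphrodite*) differ in genotype as well as tissue, which cannot be told apart.

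MADS box genes encode transcription factors that specify the identity of floral organs. In *Arabidopsis*, AGAMOUS is the class C gene of stamens and carpels, and SEEDSTICK (STK), of the related class D, acts in ovules and seeds. In orchids the ovary lies below the other floral organs, within the tissue sampled here as pedicel, and ovule development starts only after pollination. In bulk tissue, fewer cells that make a transcript and less transcript per cell cannot be told apart.

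On the raw scale the probe was bright in the pedicel. Its 2 spots read 2527 and 2634 intensity units on the first pedicel array and 2494 and 2547 on the second. In the pollinia they read 235.6 and 81.9 on the first array, which thus differed between its own spots, and 82.2 and 82.4 on the second. In the column they read 22.6 and 13.9, and 15.7 and 15.0, most of them under the floor of 20 below which intensities were set equal. The sepal gave 62.9 and 4.44 on the first array and 4.40 and 4.75 on the second, so that its signal rested on 1 spot. No petal or lip spot read above 4.92, and none was well above background, the scanner software's call that a spot exceeds its local background.

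After the floor, a log2 transformation and quantile normalization, the level in the pedicel was 11.30 ± 0.02 (SD, n = 2). The pollinia came next among the organs at 8.37 ± 0.57 (n = 2), followed by the sepal at 4.78 ± 0.64 (n = 2; 1 array well above background) and the column at 4.52 ± 0.28 (n = 2). Petal and lip lay at the floor of 4.32 on all 4 arrays. Both pedicel arrays were above every array of the other organs. The pedicel level was 7.63-fold that of the pollinia and at least 126-fold those of petal and lip, which have only a bound set by the floor. Column and sepal lay so near the floor that their folds followed the handling of low intensities. The pedicel was 110-fold above the column here, 97.3-fold with a floor of 5 and 27.3-fold with another background correction (normexp). Against the sepal these folds were 92.1, 251 and 35.0, and the column lay above the sepal under both alternatives and when arrays were scaled to their 75th percentile. With normexp the folds against petal and lip were 42.3 and 41.9. These values are a description without a test, because the study named the gene for its pedicel pattern on these same arrays. Within a scan batch that held both organs, the pedicel exceeded the pollinia by 2.52 and 3.34 log2 units and the column by 6.57 and 6.99.

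**Figure D1:**
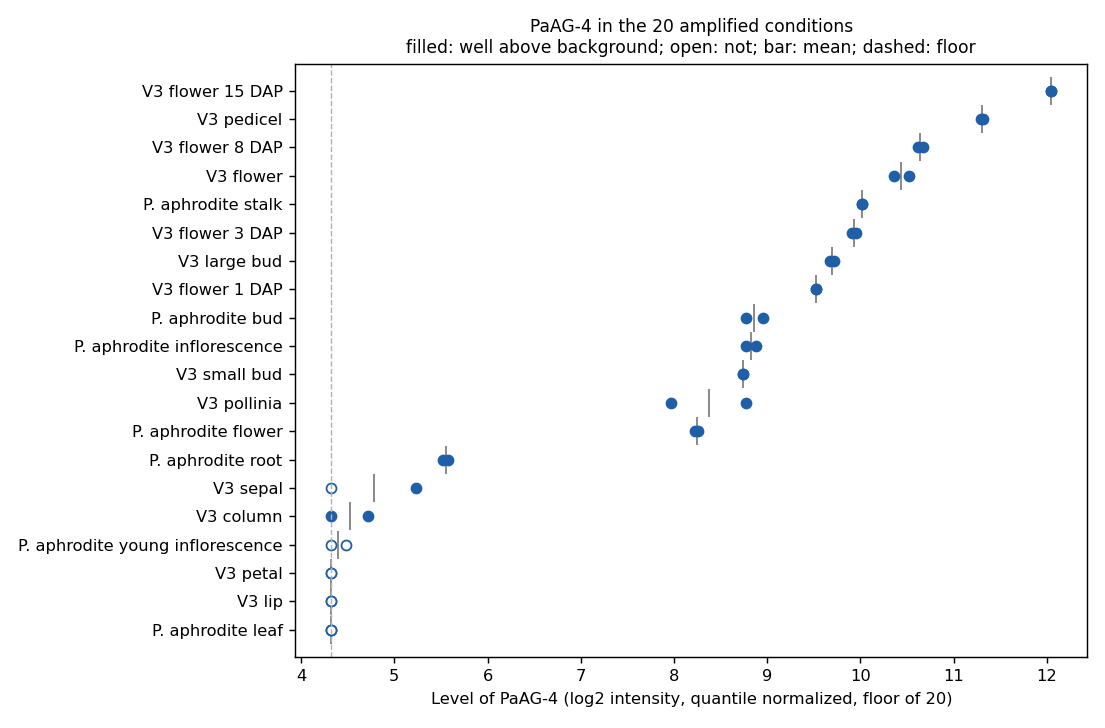
Level of PaAG-4 (x axis, log2 intensity after quantile normalization) on each of the 41 amplified arrays, by condition (y axis, ordered by mean); filled points were well above background, open points were not, the short bar is the mean and the dashed line the floor. The flower at 15 DAP (12.05) and the pedicel (11.30) lead, while petal, lip, leaf and young inflorescence sit at or next to the floor.

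The specificity measure (SPM) divides the linear level in a tissue by the root of the summed squares over tissues and reaches 1 when a transcript is found in 1 tissue only. Over 8 tissues (the 6 floral organs, leaf and root), the pedicel SPM of *PaAG-4* was 0.990, the pollinia SPM 0.135 and the root SPM 0.0184. Of 34610 contigs well above background in at least 1 of these tissues, 22 (0.0636%) had a pedicel SPM as high or higher. That rank is a description only, because the study named the gene as pedicel specific from these same arrays. The value depended on what else was counted. It was 0.905 over the 11 conditions that are not whole flowers or buds, where the stalk had 0.371, and 0.440 over all 20 conditions, where the flower at 15 DAP had 0.739.

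Among all 20 amplified conditions, the pedicel was second. The flower at 15 DAP was highest at 12.05 ± 0.0023 (n = 2), 0.75 log2 units above the pedicel. The flower at 8 DAP (10.64 ± 0.03), the unpollinated V3 flower (10.44 ± 0.11) and the *P. aphrodite* stalk (10.02 ± 0.0003) followed the pedicel, with no overlap between neighbours in this order. The flower at 3 DAP (9.93 ± 0.03), the large bud (9.70 ± 0.02) and the flower at 1 DAP (9.53 ± 0.0047) came next, also without overlap. Lower in the order, the *P. aphrodite* bud (8.86 ± 0.13) overlapped the inflorescence (8.83 ± 0.07), and the pollinia overlapped both the V3 small bud (8.74 ± 0.0006) and the *P. aphrodite* flower (8.25 ± 0.02). The root (5.55 ± 0.04) lay 2.70 log2 units below that flower, with no overlap, and the conditions under the root overlapped each other. The first 4 places were the same under 5 ways to scale the arrays, while the stalk moved from place 5 with quantile normalization to place 7 when each array was scaled to its 75th percentile.

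The AG-like contigs had another order among the organs. PaAG-1, PaAG-2, PaAG-3, PATC119249 and PATC209388, which the study annotates as AG-like, were each highest in the column, above their own pedicel level by 1.92, 4.41, 3.24, 3.61 and 1.93 log2 units respectively. *PaAG-4* was 6.78 log2 units lower in the column than in the pedicel. Like these 5 contigs it was lower in the pollinia than in the pedicel, by 2.93 log2 units, against 2.99 for PaAG-1 and 4.59 for PaAG-3. The differences are given within each contig because probes differ in brightness. PaAG-1 and PATC209388 had nearly the same profile, and whether their probes report the same transcript was not tested.

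**Figure D2:**
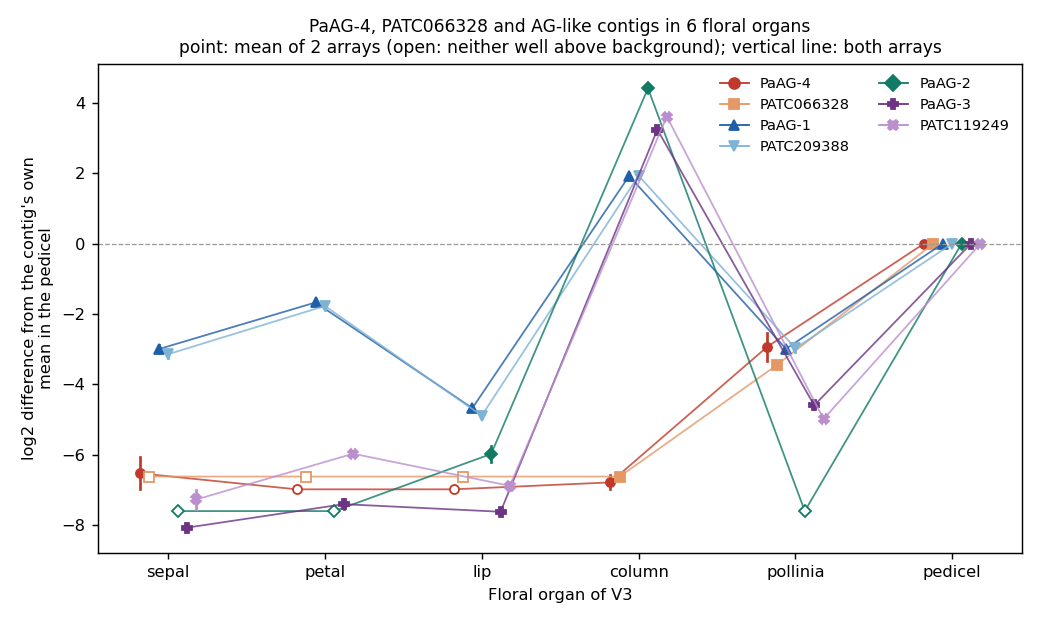
Log2 difference of each contig from its own mean in the pedicel (y axis) in the 6 floral organs of V3 (x axis) for PaAG-4, PATC066328 and 5 AG-like contigs; points are means of 2 arrays, open where neither array was well above background, and vertical lines join both arrays. In the column the 5 AG-like contigs lie 1.92 to 4.41 above their pedicel level, and PaAG-4 lies 6.78 below it.

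Both KNOX contigs of the study were also highest in the pedicel among the floral organs. So were the MADS box contigs PaAP1-2, PaAGL6-2, PaSEP-1 and PaSOC1-3, with a pedicel SPM over the 8 tissues of 0.983, 0.907, 0.584 and 0.353. The study's remaining MADS box contigs with a probe were each highest in another organ. KNOX genes encode homeodomain proteins known from other plants for keeping meristem cells undifferentiated. PATC145786 had 14.48 ± 0.08 (n = 2) in the pedicel and 5.47 ± 0.65 in the pollinia, and PATC127065 had 12.46 ± 0.02 and 7.56 ± 0.10. Their difference between pollinia and pedicel was -9.01 and -4.90 log2 units, beside -2.93 for *PaAG-4*.

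The signal in the pollinia was tested against the mean of sepal, petal, lip and column. *PaAG-4* was higher in the pollinia by 3.89 log2 units (95% interval 3.56 to 4.21), at least 14.8-fold since petal and lip have only a bound (limma, adjusted p = 1.01e-17). Of all 33817 contigs tested, 91.9% passed this comparison in either direction, and 8.04% were higher in the pollinia by as much or more. The difference was 2.51 with normexp and 5.16 with a floor of 5, and passed with both. Both pollinia arrays lay above all 8 arrays of the other organs. Without the first pollinia array, whose spots differed, the difference was 3.48, and with it as the only pollinia array 4.29. Of the 20 other MADS box contigs named by the study, 7 were higher and 13 lower in the pollinia (median difference -1.07, against -0.04 over all contigs tested). The column carries the pollinia in an orchid flower, and the part of column tissue in this value was not tested. *PaAG-4* itself stood at 4.52 in the column, near the floor, and at 8.37 in the pollinia. PaAG-2, at 16.33 in the column, was not well above background on either pollinia array, while PaAG-3 stood at 17.33 in column and at 9.49 in pollinia.

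The root gave a low but measured signal after amplification. The spots read 56.4 and 40.5 on the first *P. aphrodite* root array and 44.5 and 52.6 on the second, all 4 well above background, against 5.23 to 10.9 on the 3 leaf arrays, where none was. The root level was 5.55 ± 0.04 (n = 2) and the leaf level 4.32, the floor, on all 3 arrays, so the groups did not overlap. The difference was 1.23 log2 units (0.86 to 1.60), at least 2.34-fold (limma, adjusted p = 9.15e-07). In this comparison 84.1% of 30587 contigs passed, and 14.4% were higher in root by as much. The size followed the handling of low intensities, since it was 0.58 with normexp and 2.19 with a floor of 5. Roots and leaves were scanned in different batches, which cannot be told apart from the tissue. Both amplified root arrays were on the same slide. Without amplification no root spot of either genotype was well above background. The pedicel level was 53.9-fold that of the root, or 23.3-fold with normexp. Of the 12 other MADS box contigs that could be tested, 2 were higher and 9 lower in root than in leaf.

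Pollination was followed in whole V3 flowers. Before pollination the spots read 1229 and 1276 on the first array and 1652 and 1290 on the second. At 1 DAP they read 775.4 and 784.4, and 768.2 and 804.3. At 3 DAP they read 1171 and 1192, and 1071 and 1064. The arrays of each stage stayed apart from those of every other stage on the raw scale. At 8 DAP the spots read 2205 and 2212, and 2039 and 2051, and at 15 DAP 4544 and 4625, and 4715 and 4829, the highest readings of the gene on any array.

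The normalized level fell from 10.44 in the unpollinated flower to 9.53 at 1 DAP and stood at 9.93, 10.64 and 12.05 at 3, 8 and 15 DAP. The 5 stages differed (limma F-test, adjusted p = 1.49e-10), with 2.52 log2 units between the lowest and the highest, as did 94.7% of 33279 contigs. The 4 days share the same 2 unpollinated arrays. At 1 DAP *PaAG-4* was lower than in the unpollinated flower by 0.91 log2 units (95% interval of the difference -1.32 to -0.51, adjusted p = 1.68e-04, 82.2% of contigs passed). At 3 DAP the difference was -0.51 (-0.91 to -0.10, adjusted p = 0.0208, 81.8% passed), and it did not pass when each array was scaled to its 75th percentile, where it was -0.32. At 8 DAP it was 0.21 (-0.20 to 0.61, adjusted p = 0.337), in a comparison that 80.1% of contigs passed, and it passed at 0.49 with the 75th percentile. At 15 DAP *PaAG-4* was higher by 1.61 (1.21 to 2.02), or 3.05-fold (adjusted p = 5.20e-08, 85.1% passed), and 14.2% of contigs were higher by as much.

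From stage to stage, the 3 DAP flower exceeded the 1 DAP flower by 0.41 log2 units (0.0008 to 0.81, limma, adjusted p = 0.0754), in a comparison that 62.7% of contigs passed. All 20 conditions share an estimate of the spread, and the largest SDs were those of sepal (0.64), pollinia (0.57) and column (0.28). With only the arrays of 1 and 3 DAP in the fit, the same difference had an SE of 0.0266 and an adjusted p of 0.000625. The 8 DAP flower exceeded the 3 DAP flower by 0.71 (0.31 to 1.12, adjusted p = 0.00292, 60.7% of contigs passed), and the values within 2 scan batches were 0.67 and 0.76. The step to 15 DAP was 1.40 (1.00 to 1.81), or 2.65-fold (adjusted p = 1.07e-06, 63.6% passed), and 1.38 within the batch that held both stages. Only 3.84% of contigs were higher by as much at this step. Unpollinated and 1 DAP flowers were each scanned in a batch without other stages of this course, so their differences from the rest cannot be told apart from the scan.

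The AG-like contigs took different courses after pollination. PaAG-1 was higher than in the unpollinated flower on every day, by 0.94 at 1 DAP and 2.94 log2 units at 15 DAP, and PATC209388 by 0.89 and 3.06. PaAG-3 and PATC119249 fell by 1.92 and 1.87 at 1 DAP and were higher by 0.52 and 0.46 at 15 DAP. PaAG-2 was still lower by 1.08 at 15 DAP. Each of these differences passed (limma, adjusted p between 1.88e-21 and 0.00106), as did 82.2% of all contigs tested at 1 DAP and 85.1% at 15 DAP. Of the 20 other MADS box contigs, 8 were higher and 11 lower at 1 DAP (median difference -0.42, against 0.02 over all contigs). At 15 DAP 12 were higher and 7 lower (median 0.43, against -0.07 over all contigs). Over all contigs tested, 13010 were higher and 12545 lower at 1 DAP, and 12834 higher and 14218 lower at 15 DAP. Since whole flowers were sampled, the share of each organ in the sample may have changed between the days, and its part in these values was not tested.

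**Figure D3:**
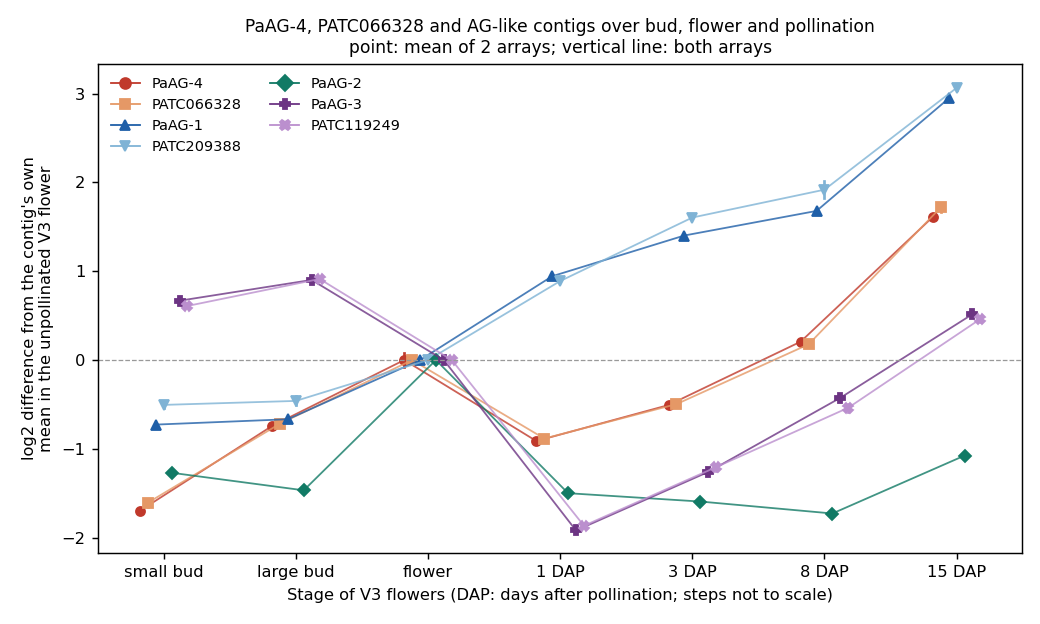
Log2 difference of each contig from its own mean in the unpollinated V3 flower (y axis) over 7 stages from small bud to 15 DAP (x axis, not to scale); points are means of 2 arrays and vertical lines join both arrays. PaAG-4 and PATC066328 run together from the small bud through a low at 1 DAP to 1.61 and 1.72 above the unpollinated flower at 15 DAP. PATC066328 was picked for its correlation with PaAG-4 over conditions that include these stages.

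Before opening, the level rose with bud size. The spots read 719.6 to 746.8 on both small bud arrays and 1101 to 1134 on both large bud arrays, without overlap. The large bud exceeded the small bud by 0.96 log2 units (0.55 to 1.36, limma, adjusted p = 1.75e-04, 58.9% of contigs passed), all 4 arrays being of the same scan batch, and 6.63% of contigs were higher by as much. The open V3 flower exceeded the large bud by 0.74 (0.34 to 1.15, adjusted p = 0.00129, 83.8% passed). Scaled to the 75th percentile this was 0.31 and did not pass (adjusted p = 0.0826). Flowers and buds of V3 were scanned in different batches, which cannot be told apart from the stage.

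In *P. aphrodite*, the stalk was the brightest tissue. Its spots read 1340 to 1440 on both arrays, against 785.6 and 782.7, and 564.3 and 570.1, in the inflorescence. In the young inflorescence they read 14.4 and 13.1, and 23.0 and 9.16, none well above background. The bud read 454.1 to 602.0 and the flower 251.6 to 283.7. The stalk exceeded the leaf by 5.69 log2 units, at least 51.7-fold (limma, adjusted p = 1.60e-19, 87.3% of contigs passed), and 1.21% of contigs were higher by as much. It exceeded the flower by 1.77, or 3.41-fold (adjusted p = 1.50e-08, 79.6% passed), a comparison added after the values were seen. The flower in turn exceeded the leaf by 3.92, at least 15.2-fold (adjusted p = 3.09e-16, 85.3% passed). With normexp the differences from the leaf were 3.88 for the stalk and 2.33 for the flower, and with a floor of 5 they were 6.66 and 4.89, all past the threshold. The stalk arrays formed a scan batch of their own, and the amplified leaf arrays shared theirs with no other amplified condition, so these differences cannot be told apart from the scan.

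The young inflorescence stood far below the older one. *PaAG-4* was lower there by 4.43 log2 units (4.03 to 4.84), at least 21.6-fold (limma, adjusted p = 1.03e-15), while 68.0% of 32646 contigs passed. Only 70 of them (0.214%) were lower by as much. With normexp the difference was -2.75 and with a floor of 5 it was -5.15, and both passed. The difference was -4.56 and -4.30 within the 2 scan batches that held both. Of 19 other MADS box contigs tested, 15 were also lower in the young inflorescence and 3 higher. PaAG-1, PaAG-2, PaAG-3, PATC119249 and PATC209388 were among the lower, with differences of -3.49, -3.93, -3.65, -3.50 and -3.93. The KNOX contigs PATC127065 and PATC145786 were higher there, by 1.82 and 0.66.

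The inflorescence lay 1.19 log2 units below the stalk (adjusted p = 6.34e-06, 82.0% of contigs passed). Bud and inflorescence differed by 0.03 (-0.37 to 0.44, limma, adjusted p = 0.889), in a comparison that 80.0% of contigs passed, and their arrays overlapped. The open flower was 0.62 lower than the bud (0.21 to 1.02 lower, adjusted p = 0.00591, 83.5% passed), and 0.71 lower within the scan batch that held both. Without the first bud array it was 0.52 lower and did not pass. Of the 20 other MADS box contigs, 16 were also lower in the flower than in the bud and 1 was higher.

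The genotypes were compared in the flower. *PaAG-4* was higher in V3 than in *P. aphrodite* by 2.19 log2 units (1.79 to 2.60), or 4.57-fold (limma, adjusted p = 3.45e-10), on the amplified arrays. In this comparison 76.3% of 31072 contigs passed, and 3.31% were higher in V3 by as much. Of the 20 other MADS box contigs, 14 were higher and 5 lower in V3 (median 0.59, against 0.08 over all contigs). The direction from bud to flower also differed between the genotypes. It was 0.74 in V3, from the large bud, and -0.62 in *P. aphrodite*, and the difference of 1.36 (0.79 to 1.93), a comparison added after the values were seen, passed (adjusted p = 1.20e-04, 73.8% passed). Of the 20 other MADS box contigs, 15 were higher and 2 lower in this difference (median 0.97, against -0.07 over all contigs). The labels give no size for the *P. aphrodite* bud, so stage and genotype cannot be told apart, and nor can the scan batch, since no batch of the amplified arrays held flowers of both.

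**Figure D4:**
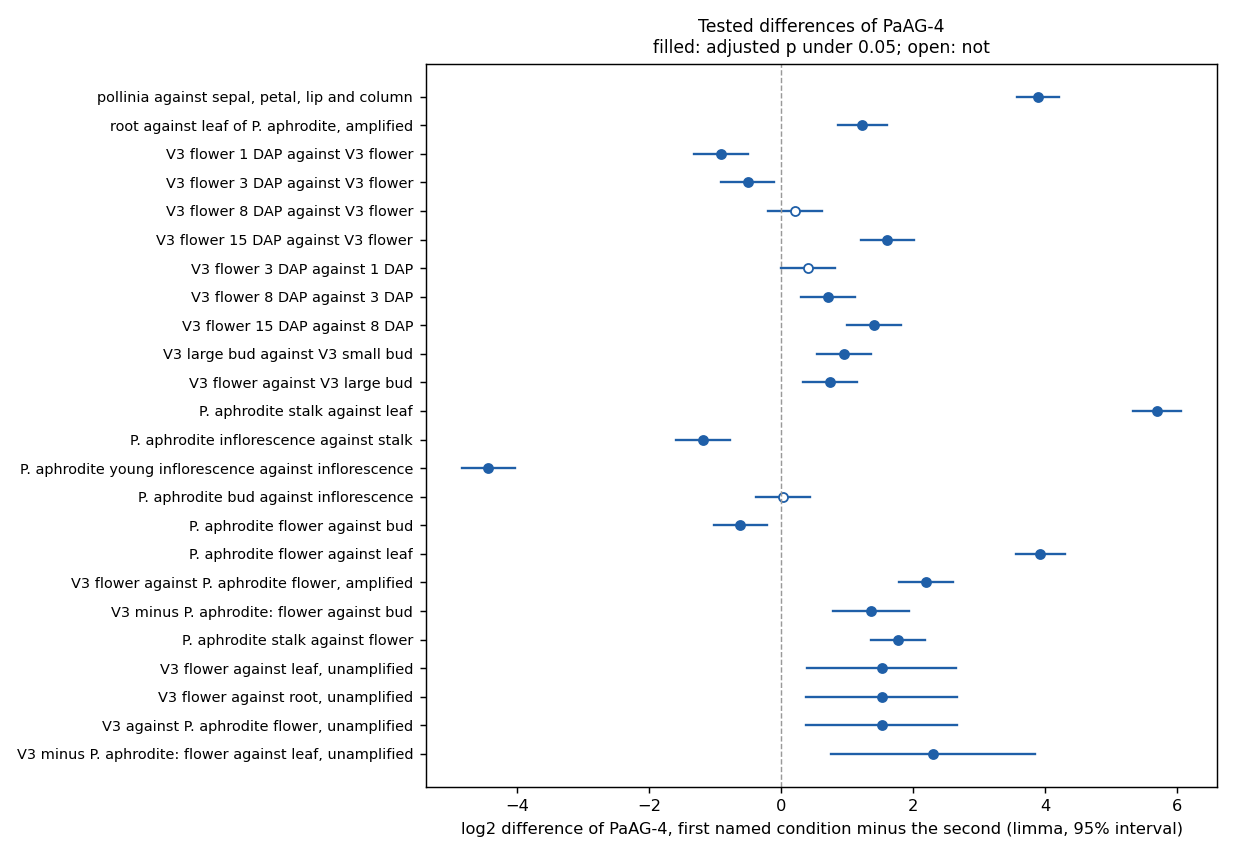
Tested log2 differences of PaAG-4 (x axis, first condition minus the second) with 95% intervals from limma, by comparison (y axis); filled points have an adjusted p under 0.05. The stalk against the leaf (5.69) and the young inflorescence against the inflorescence (-4.43) are the widest differences, and 8 DAP against the flower, 3 DAP against 1 DAP and bud against inflorescence have open points.

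Without amplification the signal was near the limit of the array. The V3 flower spots read 38.2 and 69.6 on the first array and 56.9 and 59.8 on the second, all well above background. On the other 11 arrays no spot exceeded 27.4, except on the second *P. aphrodite* leaf array, where 1 spot read 376.3 and the other 4.92. That spot was the only one of those 11 arrays well above background. It was not marked as an outlier by the scanner software, and no other leaf array of either set repeated it.

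The V3 flower stood at 5.84 ± 0.08 (n = 2), and V3 leaf, V3 root, *P. aphrodite* flower and *P. aphrodite* root at the floor of 4.32 on both arrays each. The *P. aphrodite* leaf had 5.10 ± 1.18 (n = 3) because of that spot. The V3 flower exceeded the V3 leaf, the V3 root and the *P. aphrodite* flower by 1.52 log2 units each, at least 2.87-fold (limma, adjusted p = 0.0312, 0.0262 and 0.0335). The shares of contigs that passed were 44.2%, 57.4% and 44.6%. All 3 values set the same 2 V3 flower arrays against the floor. *PaAG-4* entered these tests only through the V3 flower, so the filter fixed their direction. These sizes too followed the floor, being 0.84, 0.97 and 0.59 with normexp and 3.05, 3.31 and 2.31 with a floor of 5. Without the second *P. aphrodite* leaf array in the fit, the same 3 differences had adjusted p of 1.17e-05, 9.51e-06 and 1.97e-05. With that leaf array kept, leaving out any array of the conditions compared ended each of the 3 calls. The difference between genotypes in flower against leaf was 2.30 (0.75 to 3.84, adjusted p = 0.0272, 33.6% passed), and 1.62 without that leaf array. In the other 6 comparisons among the unamplified conditions *PaAG-4* was not well above background throughout either condition and was not tested.

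**Figure D5:**
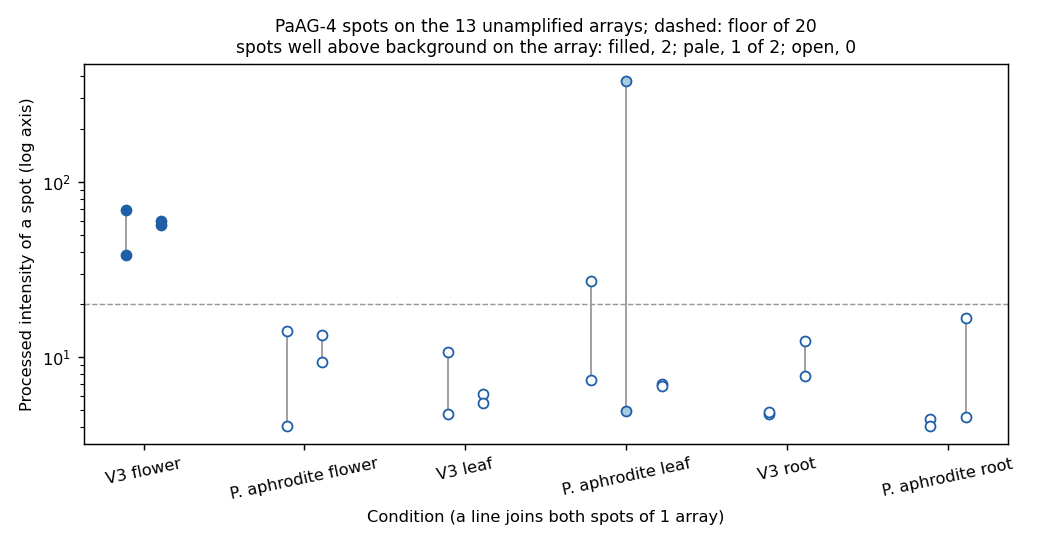
Processed intensity (y axis, log scale) of both PaAG-4 spots on each of the 13 unamplified arrays, joined by a line per array, by condition (x axis); filled spots are on arrays where both were well above background, pale where 1 of 2 was, open where none was. The V3 flower spots lie between 38.2 and 69.6, and 1 spot of a *P. aphrodite* leaf array at 376.3.

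The contigs most like *PaAG-4* were sought by the correlation of mean log2 levels over the 20 amplified conditions, among 35643 contigs well above background in at least 1. The conditions share scan batches and, for V3 flowers, organs, so the correlations are a description. PATC066328 led with a Pearson's r of 0.996 (Spearman's rho 0.985), and 0.996 without the pedicel. PATC175072 (r = 0.904) and PATC173815 (0.883) followed, and then PATC074709 (0.818) and PATC166128 (0.804). The remaining 5 of the 10, PATC122106, PATC144516, PATC163842, PATC158518 and PATC124701, had 0.776 down to 0.724. The list depended on the measure, since only 5 of the 10 were also among the first 10 by Spearman's rho, where PATC163842 held place 66. Only 2 contigs reached 0.9. PaAG-3, the nearest of the other MADS box contigs, had 0.681, and the KNOX contigs PATC127065 and PATC145786 had 0.722 and 0.687.

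PATC066328 had 10.94 ± 0.04 in the pedicel, 7.48 ± 0.09 in the pollinia, 11.74 ± 0.07 at 15 DAP and 9.59 ± 0.02 in the stalk (n = 2 each), and lay at the floor in sepal, petal, lip, column, leaf and young inflorescence. In the root it had 4.82 ± 0.02, with 1 of 2 arrays well above background. Against the unpollinated flower it changed by -0.88, -0.50, 0.18 and 1.72 log2 units at 1, 3, 8 and 15 DAP (limma, adjusted p between 2.30e-21 and 7.49e-04), beside -0.91, -0.51, 0.21 and 1.61 for *PaAG-4*. In these comparisons 80.1% to 85.1% of all contigs passed. For PATC066328, V3 flowers exceeded *P. aphrodite* flowers by 2.40 (limma, adjusted p = 5.39e-24, 76.3% of contigs passed), and the pollinia the mean of the 4 other organs by 3.16. PATC066328 was picked for its correlation with *PaAG-4* over these same conditions. Its likeness in these comparisons therefore follows from that choice and is a description only. Contig sequences were not used here, so whether both probes report the same transcript was not tested.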

How the data were processed

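The arrays carried probes designed on *P. aphrodite* contigs and took 1 Cy3-labelled sample each. Per the labels, RNA was amplified for 41 arrays, and for 13 cDNA was labelled directly. The authors deposited the processed intensity of every spot, background-subtracted and spatially detrended by Agilent Feature Extraction 10.7.1.1. Their deposited log2 table equals the log2 of the floored intensity minus a constant per array, within 0.00172 of its 75th percentile, while the methods name quantile normalization.

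Intensities were floored at 20, log2-transformed and quantile normalized here, amplified and unamplified arrays separately. Spots were averaged per probe without outlier spots, and the brightest probe represented a contig. A probe was well above background where at least 0.5 of its spots were. Contigs well above background on every array of a compared condition were tested with limma 3.58.1 (R 4.3.3), with all arrays of a set in 1 fit, Benjamini-Hochberg adjustment over the contigs tested and a threshold of 0.05. The fit was tested on simulated data. Each array counted as a replicate, and the number of arrays, 2 or 3 per condition, limits the precision. The 75th percentile of intensity was 2335 to 8107 on amplified and 446.2 to 1077 on unamplified arrays, and no spot was saturated.

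The genes named were *PaAG-4*, the study's other MADS box and KNOX contigs, and the 10 contigs of highest Pearson's r with *PaAG-4*. Of 22 MADS box contigs named by the study, 21 had a probe. The gene, the lists and the tests were chosen with earlier results of these data known. Alternatives varied the scaling, background correction, floor, filter, arrays in the fit, averaging of like arrays, and terms for scan batch or slide. The averaging of like arrays, found by comparing probe means, merged the arrays of 18 of the 26 conditions.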

Additional observations from a re-analysis of the deposited data

Results flagged for a closer look

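A difference between the genotypes passed its test in each set of arrays. From bud to flower, the log2 change of *PaAG-4* was larger in V3 than in *P. aphrodite* by 1.36 on the amplified arrays. V3 rose there and *P. aphrodite* fell. Scaled to the 75th percentile, the V3 rise was 0.31 and did not pass. The test of the 1.36 difference was added after the values were seen, and 73.8% of contigs passed it. In this difference, bud stage and scan batch cannot be told apart from genotype. Of the 20 other MADS box contigs named by the study, 15 were higher and 2 lower in the same difference. Over all 33047 contigs tested, 11395 were higher and 12981 lower. From leaf to flower, the log2 change of *PaAG-4* was larger in V3 by 2.30 on the unamplified arrays, and by 1.62 without a *P. aphrodite* leaf array that had 1 bright spot. V3 leaf and *P. aphrodite* flower lay at the floor with no array well above background, so the size is set by the floor and that spot, and it was 1.13 with normexp and 3.42 with a floor of 5. The difference passed in 10 of 22 alternative settings, and in 3 of the 9 that left out an array.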

How the results depend on the processing

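Leaving out 1 of 2 arrays leaves a lone array that is assumed to vary like the others. Differences against conditions at the floor followed the floor and the background correction, as given beside them, and all the amplified ones kept their call with both. Where only 1 of 2 conditions compared was well above background, *PaAG-4* entered the test through that condition, which set the direction beforehand. No paired analysis was possible because the labels give no replicate numbers. The main fit had no block, and scan batch and slide were used as blocks only in alternative fits. The cause of the changes below was not tested, and a scan batch term and the unamplified fits without the second *P. aphrodite* leaf array were chosen after seeing the data.

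*P. aphrodite* bud against inflorescence, 0.03, turned to -0.30 with the 75th percentile and with the deposited table, and ranged from -0.061 to 0.12 when an array was left out. *P. aphrodite* flower against bud missed the threshold at an unchanged -0.62 with a floor of 5 and with like arrays averaged, and ranged from -0.71 to -0.52 with an array left out. With the 75th percentile the latter was -1.15 and inflorescence against stalk -0.67, both past the threshold. The pedicel SPM was 0.440 over all conditions and 0.905 without whole flowers and buds.

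After pollination, 3 against 1 DAP passed at 0.60 (75th percentile), 0.59 (deposited table), 0.40 (normexp) and 0.41 (only the conditions compared). The 3 DAP flower against the unpollinated one did not pass at -0.32 (75th percentile), -0.31 (deposited table), -0.44 (scan batch as a random block), or -0.51 (floor of 5, like arrays averaged), and ranged from -0.59 to -0.43 with an array left out. Its call held in only 9 of 17 alternative settings, those with an array left out included. The step from 3 to 8 DAP, 0.71, did not pass with a floor of 5 or like arrays averaged. The 8 DAP flower against the unpollinated one passed at 0.49 (75th percentile, deposited table) and at 0.21 with only the conditions compared. V3 flower against large bud did not pass at 0.31 (75th percentile, deposited table) or at 0.74 with like arrays averaged, nor did large against small bud, 0.96, with like arrays averaged.

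Without amplification, V3 against *P. aphrodite* flower did not pass at 1.097 (75th percentile), 1.11 (deposited table), 0.59 (normexp), 1.97 (all 54 arrays normalized together) or 1.52 (no filter). V3 flower against leaf and against root did not pass at 1.97 and 1.52 under the last 2 of these settings. With an array left out, these 3 ranged from 1.46 to 1.58. The difference between genotypes in flower against leaf did not pass at 1.81 (75th percentile), 1.82 (deposited table), 1.13 (normexp), 3.09 (all 54 arrays) or 2.30 (no filter, like arrays averaged), and ranged from 1.62 to 2.68 with an array left out.

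With like arrays averaged, fewer contigs passed in 11 comparisons, by over 1.5 times. Counts fell from 24844 to 16232 for stalk against flower, from 23699 to 15319 for flowers of the genotypes and from 24376 to 15858 for their flower against bud difference. They fell from 18814 to 8898 for large against small bud, and from 19579, 19829 and 20882 to 7689, 9365 and 9733 for the steps to 3, 8 and 15 DAP. Without amplification they fell from 14668 to 4551 (V3 flower against leaf), 19813 to 11109 (against root), 14849 to 2164 (flowers of the genotypes) and 11604 to 0 (genotype difference, where limma still gave 5220 contigs an unadjusted p under 0.05). With only the conditions compared, the count was 11778 in place of 22213 for young against older inflorescence, and 11109 in place of 19813 for V3 flower against root.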
